A study of Mus musculus with 16 samples.

Results

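The 10 genes described here encode proteins that are secreted into the extracellular matrix. Dcn (decorin), Bgn (biglycan), Lum (lumican), Fmod (fibromodulin) and Ogn (osteoglycin) encode small leucine-rich proteoglycans. Sparc, Fn1 (fibronectin), Postn (periostin), Nid1 and Nid2 (nidogens) encode matrix glycoproteins. They were chosen by name, and every array probe whose annotated symbol is one of these names was taken. That gave 14 of the 25697 probes, for 9 of the 10 genes, where the arrays carry probes for 16590 genes in all. No probe named Fn1 was among those used, so fibronectin was not analysed here.

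The RNA came from C2C12, a mouse myoblast cell line that proliferates in growth medium (GM, with fetal bovine serum). It forms differentiated muscle cells in differentiation medium (DM, with horse serum). Cytoplasmic extract of cells in either medium was incubated with an antibody to MYF5, a muscle transcription factor, or with control IgG, and the RNA that stayed on the beads was hybridised to 16 Illumina bead arrays. The groups were GM with IgG, GM with anti-MYF5, DM with IgG and DM with anti-MYF5, with 4 arrays each. The study asked which RNAs are recovered with MYF5. All groups share the cell line, the cytoplasmic extract, the beads and the oligo-dT amplification. Every value is RNA recovered in a precipitate, and no input RNA was analysed here, so a difference between media in a precipitate cannot be told apart from a difference in how much of the RNA sticks to the beads. Fewer cells of a type and less RNA per cell cannot be told apart either. The labels do not say whether the 4 replicates were separate cultures, so p-values measure only the spread between these samples.

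Mean signal per array was 324 to 581 and the share of probes detected was 46.4% to 50.9%. Pearson correlations of normalized values were 0.986 to 0.998 between arrays of a group and 0.915 to 0.985 between groups. Of 10 muscle genes used to check the cell type, 8 had a probe. All 8 were detected on every DM array, and Myod1, Des, Chrna1 and Acta1 on every GM array. The muscle structural and fusion genes Ckm, Tnnt3 and Mymk were detected on no GM array. The summed signal of the 8 was 6785 to 11290 over the GM arrays and 46840 to 67820 over the DM arrays. Of 7 fibroblast marker genes with a probe, Pdgfra, Pdgfrb and Cd34 were detected on all arrays of every group. Thy1 and Tcf21 were detected on no array. Pi16 and Dpt were detected on no GM array, and on 1 and 6 DM arrays. The summed signal of the 7 was 707 to 1231 in GM and 914 to 1467 in DM. Of 5 adipocyte markers with a probe, Adipoq, Fabp4 and Plin1 were detected on no array and Pparg on all. The remaining marker, Cebpa, was detected on 1 GM array and all 8 DM arrays. The summed signal of the 5 adipocyte markers was 606.8 to 898.3 in GM with IgG and 1155 to 1767 in GM with anti-MYF5. In DM it was 404.9 to 425.7 with IgG and 493 to 614.8 with anti-MYF5. Of 4 macrophage and blood markers, Ptprc, Adgre1 and Tyrobp were detected on no array. Hba-a1, a globin gene, was detected on all 8 GM arrays and 3 DM arrays. The sum of these 4 markers was 684.9 to 856.6 and 328.2 to 430.2 in GM with IgG and anti-MYF5. In DM it was 241.8 to 264.2 and 213.9 to 239.4. The sums of 6 endothelial markers were 381.2 to 420.7 in GM and 359.1 to 423.4 in DM. Pecam1, Cdh5 and Emcn were detected on no array and Kdr on 7 GM and 8 DM arrays. Tek and Vwf were detected on no GM array, and on 8 and 7 DM arrays. The sums of 7 bone and cartilage markers were 741.7 to 1116 in GM and 647.7 to 952.6 in DM. Ibsp and Acan were detected on no array and Sox9 on all. Alpl was detected on 6 GM and 8 DM arrays, and Bglap on 2 GM and 8 DM arrays. Sp7 was detected on 6 GM and 3 DM arrays, and Col2a1 on 3 of each medium. The part of these lists in the results below was not tested.

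Small leucine-rich proteoglycans carry a curved core of leucine-rich repeats, and several of them bear chondroitin, dermatan or keratan sulfate chains. They bind collagen fibrils and control how the fibrils assemble, and decorin and biglycan also bind growth factors of the TGF-beta family, some of which restrain muscle differentiation. Nidogens link the laminin and collagen IV networks of the basement membrane that surrounds each muscle fibre, and SPARC binds collagen and calcium.

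Myogenic factors such as MYF5 bind the DNA motif CANNTG, called the E-box, and here MYF5 was studied for binding RNA. The 250 bases before the annotated start are shown for Bgn, Ogn, Sparc and Nid1, the 4 genes that were tested on the arrays and have a table entry. Sequences are from RefSeq (GRCm38.p6), 5′ to 3′ on the gene's own strand, and a table entry was found for 6 of the 10 genes. Capitals mark each CANNTG. The windows are chrX:73483351-73483600 (plus strand) for Bgn, chr13:49607765-49608014 (plus strand) for Ogn, chr11:55420081-55420330 (minus strand) for Sparc and chr13:13437352-13437601 (plus strand) for Nid1.
Bgn: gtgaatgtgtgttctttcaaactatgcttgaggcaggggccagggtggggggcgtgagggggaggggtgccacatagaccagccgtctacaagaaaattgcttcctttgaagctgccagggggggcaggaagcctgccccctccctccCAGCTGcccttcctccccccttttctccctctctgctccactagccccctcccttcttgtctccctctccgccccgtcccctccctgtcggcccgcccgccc
Ogn: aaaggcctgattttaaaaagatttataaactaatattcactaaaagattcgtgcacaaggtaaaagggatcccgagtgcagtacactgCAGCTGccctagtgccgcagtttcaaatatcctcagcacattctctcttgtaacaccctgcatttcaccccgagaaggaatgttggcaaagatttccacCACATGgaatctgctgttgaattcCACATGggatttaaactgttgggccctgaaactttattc
Sparc: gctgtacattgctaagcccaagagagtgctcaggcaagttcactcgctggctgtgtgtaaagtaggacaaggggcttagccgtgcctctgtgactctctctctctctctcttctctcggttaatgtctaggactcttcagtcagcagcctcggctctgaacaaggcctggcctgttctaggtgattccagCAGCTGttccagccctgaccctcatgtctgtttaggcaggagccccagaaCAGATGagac
Nid1: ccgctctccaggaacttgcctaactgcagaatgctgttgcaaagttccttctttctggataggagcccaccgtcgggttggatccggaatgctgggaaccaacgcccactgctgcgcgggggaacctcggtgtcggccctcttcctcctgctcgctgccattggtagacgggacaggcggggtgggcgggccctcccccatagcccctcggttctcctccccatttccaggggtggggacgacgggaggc
CANNTG reads as CANNTG on both strands, so each match counts once. Bgn held 1 match, Ogn 3, Sparc 2 and Nid1 0, and the windows of Fmod and Postn, which were not tested on the arrays, held 1 and 0. Among 32841 promoter windows of the same length, 66.2% held at least 1 match. The form CAGCTG, a subset of CANNTG, occurred once each in Bgn, Ogn and Sparc, not in Fmod, Postn or Nid1, and in 13.0% of all windows. A match describes the letters only.

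Detection, meaning a signal above that array's negative control beads at p under 0.05, divided the probes in GM. In DM, 11 of the 14 probes were detected on all 8 arrays. In GM, 8 of those 11 were also detected on all 8 arrays, namely the single probes of Bgn, Nid1 and Nid2, both of Sparc and all 3 of Ogn. The brighter Dcn probe (ILMN_2747959) was detected on 7 of 8 GM arrays and the dimmer one (ILMN_2596346) on 3 of 8. Lum was detected on 0 of 8 GM arrays. The remaining 3 probes were at background nearly everywhere. Postn, a matricellular protein of bone and connective tissue (ILMN_1216882), had signals between 47.7 and 72.7 and was detected on 0 of 16 arrays. Fmod, a collagen-binding proteoglycan, was detected on 1 of 16 (ILMN_2999762, a GM array with anti-MYF5) and 0 of 16 (ILMN_1230020). These 3 probes were not tested, since a test needed detection on at least 4 arrays. Lum and the dimmer Dcn probe passed that filter only because of DM arrays, so a higher value in DM was built into their selection, and no p-value is given for their medium differences.

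**Figure D1:**
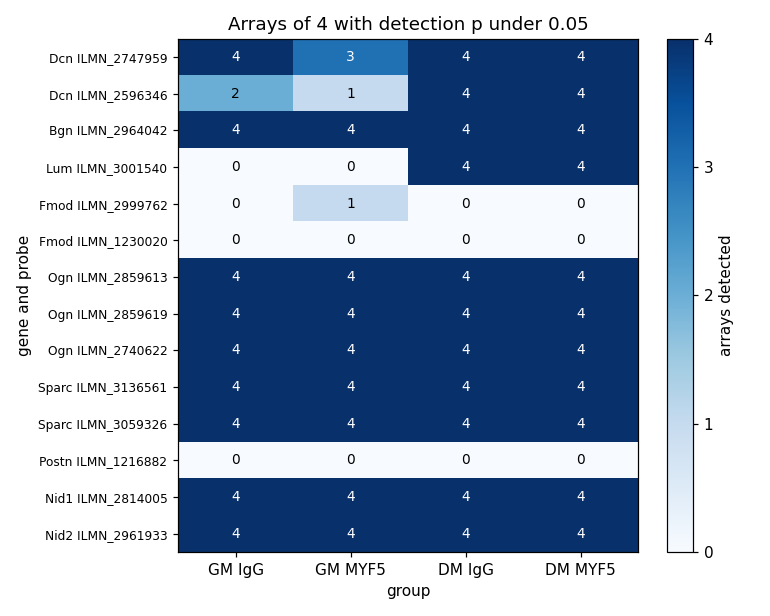
Number of arrays, of 4 in each group, on which each of the 14 probes had a detection p under 0.05 (rows, genes and probes; columns, groups of precipitates). Lum is at 0 in both GM groups and at 4 in both DM groups, and Postn is at 0 in all groups.

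Between media, proteoglycan RNA was higher in DM for Dcn, Bgn, Lum and Ogn, whichever antibody was used. Decorin had the largest fitted change of the 11 probes, 27-fold in IgG precipitates. Biglycan was already bright in GM and was 2.47-fold higher. Over all genes described here, 10 of 11 tested probes were higher in DM with IgG and 1, that of Nid1, was lower. Lum and the dimmer Dcn probe are 2 of these 10, placed there by the filter. Of all 13884 probes tested, 28.7% were called higher and 34.1% lower in that comparison. With anti-MYF5 the counts were again 10 and 1, against 27.7% higher and 33.5% lower of all probes. Among the 9 probes detected on at least 4 arrays of each medium, 8 were higher and 1 lower with either antibody. Of all 11831 such probes, 26.3% were higher and 36.1% lower with IgG, and 25.8% and 35.5% with anti-MYF5. On normalized values, the GM and DM arrays did not overlap for any of these 9 probes or of the 11, a state that 24.8% (higher) and 29% (lower) of all probes shared with IgG, and 24.9% and 29.6% with anti-MYF5. The exact permutation p was 0.0286 for each of the 9, the smallest that 4 against 4 arrays allow (two-sided). The median log2 change over the 7 tested genes was 1.55 with IgG and 1.37 with anti-MYF5, and over all 9429 genes it was -0.06 in both. Over the 6 genes without Lum it was 1.61 and 1.73, against -0.10 and -0.09 over the 8133 genes detected on at least 4 arrays of each medium. Adjusted p-values below come from limma (Benjamini-Hochberg across the tested probes), and a probe is called at 0.05.

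Dcn, whose protein decorates collagen fibrils, gave signals of 113.8, 133.4, 111.8 and 222 on GM arrays 1 to 4 with IgG (ILMN_2747959). In DM with IgG the same probe gave 3398.7, 2156.6, 2556.6 and 3621.3. With anti-MYF5 the GM signals were 97.3, 114.2, 76.6 and 229.6, and the DM signals were 2187.6, 1182.4, 1016.4 and 1973.3. Every DM array was far above every GM array, and array 4 was the highest GM array with either antibody. The log2 change, DM over GM, was 4.76 with IgG (SE 0.43, adjusted p = 3.4e-09) and 4.66 with anti-MYF5 (SE 0.43, adjusted p = 5.0e-09). The dimmer Dcn probe had mean signals that went from 84.3 ± 11.5 to 935 ± 270 with IgG (SD, n = 4) and from 76.8 ± 12.6 to 424 ± 110 with anti-MYF5. Its fitted log2 changes were 4.50 and 3.75. It was detected on 2 of 4 GM arrays with IgG and on 1 of 4 with anti-MYF5, so these sizes rest on GM values mostly at background. In RefSeq (GRCm38.p6) Dcn lies at chr10:97479500-97518163 and Lum at chr10:97565501-97572703.

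Lum, which encodes a keratan sulfate proteoglycan of collagen-rich tissues, stayed dim. It gave 73.1, 69.8, 63.3 and 60.1 in GM with IgG and 63.3, 62.5, 62.7 and 65 in GM with anti-MYF5, none of them detected. In DM it gave 137.1, 85.8, 104.4 and 116.5 with IgG and 93, 72.1, 68.7 and 77.1 with anti-MYF5, all detected. With either antibody the DM arrays were all above the GM arrays. Because GM gave no detected value, the DM level was at least 2.03-fold higher with IgG and at least 1.18-fold higher with anti-MYF5.

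Bgn, decorin's closest relative, gave 8138.4, 9311.6, 10542.1 and 8759.2 in GM with IgG and 26423.6, 24309.3, 23924.2 and 22685.3 in DM. With anti-MYF5 it gave 12472.4, 11310.9, 7826.3 and 12909.1 in GM and 26219.3, 23007.4, 22914 and 21054 in DM. The media did not overlap with either antibody. The log2 change was 1.31 with IgG (SE 0.13, adjusted p = 1.8e-08) and 1.37 with anti-MYF5 (SE 0.13, adjusted p = 9.9e-09).

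Ogn, also known as mimecan, had 3 probes of very different brightness that moved the same way. The brightest (ILMN_2859613) gave 1008.6, 1222.3, 1437 and 1559.6 in GM with IgG and 6394.9, 4450.3, 5240.9 and 5970.2 in DM with IgG. With anti-MYF5 it gave 1100.7, 1290.3, 740.5 and 2535.6 in GM and 6195.6, 4103.4, 3802 and 3848.4 in DM. All DM arrays lay above all GM arrays, and GM array 4 was again the highest with either antibody. The log2 change over the 3 probes was 1.56 to 1.94 with IgG (adjusted p of 6.0e-07 to 3.8e-06) and 1.80 to 2.33 with anti-MYF5 (adjusted p of 4.2e-08 to 6.4e-07).

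**Figure D2:**
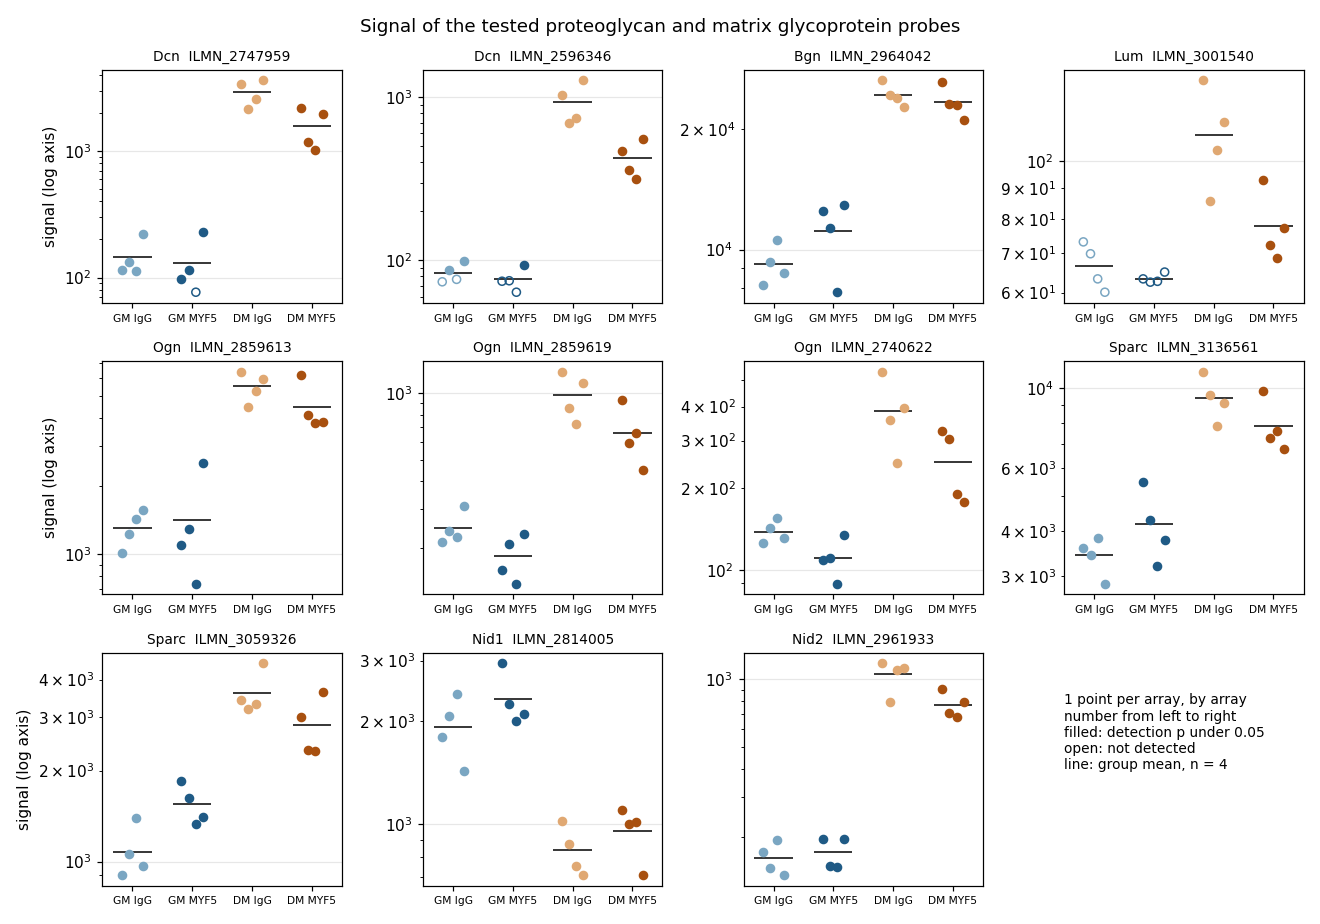
Deposited signal of the 11 tested probes on each array (log axis, panels with separate scales; points are arrays 1 to 4 from left to right, open points are not detected, lines are group means). Compared within each antibody, DM arrays are the higher ones in 10 panels and the lower ones in that of Nid1. Across antibodies the Lum signals overlap, with DM anti-MYF5 arrays at 72.1 and 68.7 below GM IgG array 1 at 73.1.

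Among the glycoproteins, Sparc and Nid2 were higher in DM and Nid1 was lower, so the 2 nidogens went in opposite directions. Sparc encodes a collagen-binding protein of remodelling tissue, and its brighter probe (ILMN_3136561) gave 3597.8, 3420, 3830.2 and 2852.3 in GM with IgG against 11134.6, 9585.3, 7834.4 and 9092.7 in DM. With anti-MYF5 it gave 5483.2, 4287.9, 3204.9 and 3786.1 in GM and 9856.4, 7271.2, 7600.4 and 6768.5 in DM. The media did not overlap. The log2 change was 1.34 with IgG (SE 0.12, adjusted p = 2.0e-09) and 1.21 with anti-MYF5 (SE 0.12, adjusted p = 1.1e-08), and the dimmer Sparc probe gave 1.59 and 1.10.

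Nid1 was the 1 tested gene of the set with less signal in DM. It gave 1791.4, 2066.4, 2403.6 and 1431.6 in GM with IgG and 1020.5, 875.9, 754.6 and 710.6 in DM. With anti-MYF5 it gave 2946.2, 2235.4, 2002.1 and 2092.6 in GM and 1097.7, 1002, 1013.9 and 709.6 in DM. Every GM array was above every DM array. Nid1 was 2.76-fold lower in DM with IgG (log2 change -1.47, SE 0.15, adjusted p = 1.7e-08) and 2.14-fold lower with anti-MYF5 (log2 change -1.10, SE 0.15, adjusted p = 1.3e-06).

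Nid2 encodes the second nidogen, which shares Nid1's binding partners in the basement membrane. It gave 170.8, 145.8, 194.1 and 135.1 in GM with IgG and 1177.9, 791.4, 1104.6 and 1127.4 in DM. With anti-MYF5 it gave 196.2, 149.1, 146.7 and 195.9 in GM and 905.2, 706.3, 679.5 and 791.7 in DM. It was detected on every array, and the media did not overlap. Nid2 was 7.32-fold higher in DM with IgG (log2 change 2.87, SE 0.16, adjusted p = 1.5e-12) and 6.62-fold higher with anti-MYF5 (log2 change 2.73, SE 0.16, adjusted p = 3.6e-12).

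Between antibodies, the question is whether these RNAs were recovered more with anti-MYF5 than with IgG, and no probe was called higher in either medium. In GM, 0 of 11 probes were called higher and 2 lower, both of Ogn, where 26.7% of all probes were called higher and 22.1% lower. In DM, 0 were called higher and 3 lower, of Dcn, Lum and Ogn, where 26.7% of all probes were called higher and 26.2% lower. By the arrays' normalized values, 1 probe did not overlap in GM, lower, where 21.8% of all probes lay apart higher and 18.6% lower. In DM 1 probe lay apart higher and 3 lower, against 25.6% and 24.6% of all probes. The median log2 change over the 7 genes was -0.09 in GM and -0.17 in DM, against 0.04 and 0.02 over all genes. At 4 arrays per group, a difference that was not called is not shown to be absent, and the 95% intervals below give its possible size. The number of probes called lower in DM was 3 in the model over all 16 arrays and 6 when only the 8 DM arrays were fitted, which also called Bgn higher.

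The spread among probes of another gene, which differed with the antibody, is given beside these values. The gap between the brightest and the dimmest of 5 probes annotated to Actb was 6.42 ± 1.53 log2 units in GM with IgG and 3.94 ± 0.52 with anti-MYF5 (SD, n = 4). In DM it was 4.73 ± 0.81 with IgG and 2.61 ± 0.76 with anti-MYF5. Precipitates with anti-MYF5 had the narrower mean gap in both media, and its part in the antibody differences was not tested.

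Ogn was called lower with anti-MYF5 in GM by its dimmer probes, and its brightest probe pointed the same way without being called. In GM, ILMN_2859619 gave 212.8, 239.2, 225 and 309.4 with IgG and 158.5, 209.1, 137.9 and 231 with anti-MYF5, and the groups overlapped (log2 change -0.95, SE 0.25, adjusted p = 0.0029, exact permutation p = 0.0571). The third probe, ILMN_2740622, gave 125.7, 143.3, 155 and 130.9 with IgG and 109.3, 111, 89.2 and 134.5 with anti-MYF5. Its normalized values did not overlap (log2 change -0.90, SE 0.23, adjusted p = 0.0023, exact permutation p = 0.0286), although the raw signals did. The brightest probe had a log2 change of -0.40 (95% interval -0.95 to 0.16, adjusted p = 0.23). That probe was called when GM anti-MYF5 array 4 was left out (-0.78, adjusted p = 0.0013). Without any scaling between arrays neither dim probe was called (log2 changes -0.56 and -0.52, adjusted p of 0.075 and 0.11).

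In DM, ILMN_2740622 was again lower, with 537.3, 355.7, 248.6 and 393.9 for IgG and 326.6, 303.9, 190.3 and 178.7 for anti-MYF5. The arrays overlapped (log2 change -0.66, SE 0.23, adjusted p = 0.019, exact permutation p = 0.0857). That call was lost when DM IgG array 1, DM anti-MYF5 array 3 or DM anti-MYF5 array 4 was left out (adjusted p = 0.092, 0.059 and 0.081). The other Ogn probes had log2 changes of -0.56 (95% interval -1.07 to -0.05, adjusted p = 0.063) and -0.17 (95% interval -0.72 to 0.39, adjusted p = 0.64). The 3 probes of Ogn therefore gave different calls for 1 gene, with log2 changes of the same sign in both media.

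Dcn was called lower with anti-MYF5 in DM by 1 of its 2 probes. ILMN_2596346 gave 1034, 694.6, 741.4 and 1271.7 with IgG and 470.5, 356.9, 313.8 and 554.9 with anti-MYF5, with no overlap (log2 change -1.15, SE 0.30, adjusted p = 0.003, exact permutation p = 0.0286). The brighter probe, whose DM signals are given above, overlapped in raw signal through IgG array 2 and anti-MYF5 array 1, and did not overlap after normalization. Its log2 change was -0.91 (95% interval -1.80 to -0.02, adjusted p = 0.082, exact permutation p = 0.0286). The model shares 1 estimate of spread over all groups. Normalized values of this probe had SDs of 0.99 (IgG) and 1.11 (anti-MYF5) in GM, and 0.26 and 0.43 in DM (n = 4). When only the DM arrays were fitted the probe was called (adjusted p = 2.6e-04). In GM the 2 probes had log2 changes of -0.82 (95% interval -1.71 to 0.08, adjusted p = 0.12) and -0.40 (95% interval -1.03 to 0.23, adjusted p = 0.3), with overlapping arrays. For the second, those GM values were detected on 3 of 8 arrays.

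Lum was lower with anti-MYF5 in DM, with a log2 change of -0.81 (SE 0.15, adjusted p = 1.1e-04, exact permutation p = 0.0286). Its normalized values did not overlap there, although the raw signals, given above, did. In GM it was not detected with either antibody, so no fold is given. The DM change minus the GM change was -0.81 (SE 0.21, adjusted p = 0.027), the 1 probe of 11 called in this comparison, where 2.32% of all probes were called higher and 3.35% lower. Since Lum was on no GM array above background, its GM change lies near 0 by construction (0.01), and the value restates the DM change rather than comparing media. It was not called after cyclic loess (-0.69, adjusted p = 0.091), on the deposited z-scores (adjusted p = 0.059), or when DM IgG array 1, DM IgG array 3, DM anti-MYF5 array 2 or DM anti-MYF5 array 3 was left out (adjusted p of 0.056 to 0.066).

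Bgn, Sparc, Nid1 and Nid2 were not called between antibodies in either medium. For Bgn the log2 change was 0.17 in GM (95% interval -0.11 to 0.44) and 0.22 in DM (95% interval -0.05 to 0.50). Its normalized DM arrays did not overlap, yet the DM direction turned to -0.09 with median scaling, to -0.05 with cyclic loess and to -0.07 with no scaling. The brighter Sparc probe had a mean signal of 3425 ± 417 with IgG and 4191 ± 969 with anti-MYF5 in GM (SD, n = 4), and after normalization a log2 change of -0.00 (95% interval -0.25 to 0.24). The dimmer Sparc probe was called higher in GM without scaling (0.56, adjusted p = 0.026), and had a log2 change of 0.16 with it (adjusted p = 0.41). In DM the Sparc probes had log2 changes of -0.14 and -0.33 (95% intervals -0.38 to 0.11 and -0.65 to -0.01). Of 23 alternatives, 5 called the dimmer Sparc probe, at -0.33, lower in DM.

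The nidogens differed from each other in DM by their point estimates, a difference that was not tested. Nid1 had a log2 change of -0.09 in GM (95% interval -0.39 to 0.22) and 0.28 in DM (95% interval -0.03 to 0.58, adjusted p = 0.12). Nid2 had -0.23 in GM (95% interval -0.57 to 0.11) and -0.38 in DM (95% interval -0.72 to -0.04, adjusted p = 0.057). Of 23 alternatives in DM, 10 called Nid2 lower, among them the fit of only the DM arrays (adjusted p = 0.012). Nid1 was called higher in DM by 3 of 23.

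**Figure D3:**
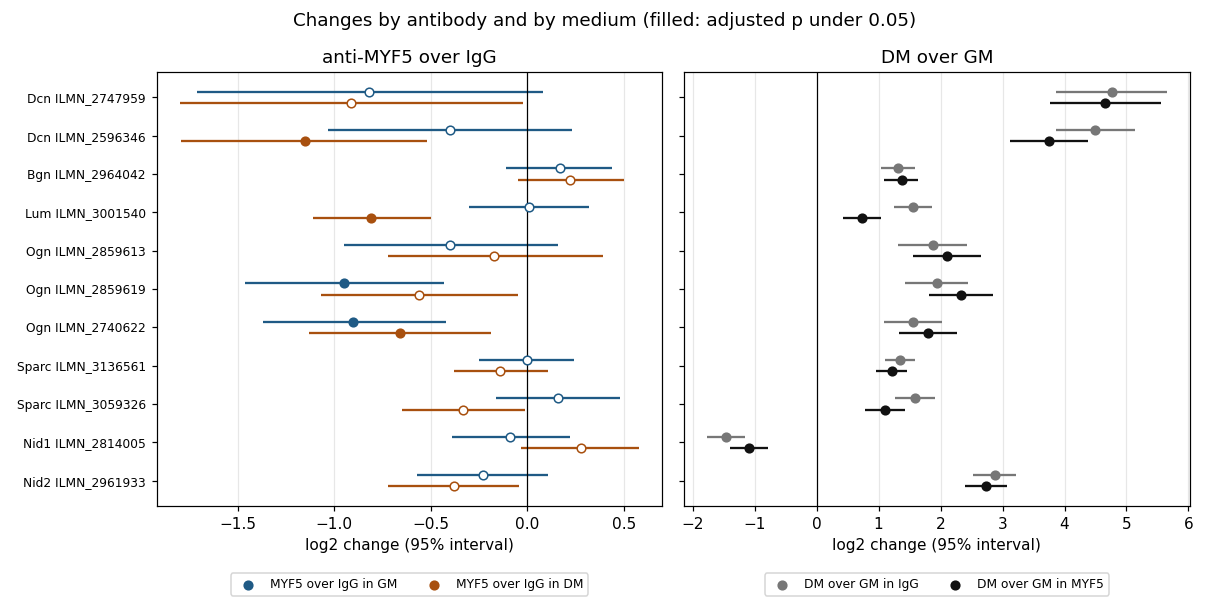
Log2 changes of the 11 tested probes with 95% intervals, anti-MYF5 over IgG in each medium (left) and DM over GM with each antibody (right); filled points have an adjusted p under 0.05. All medium differences are filled, those of Lum and the dimmer Dcn probe after selection through DM, and those of Nid1 alone lie below 0. On the left 2 points in GM and 3 in DM are filled, all below 0.

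By normalized values in GM, array 4 was the highest array with both antibodies for 5 of 9 probes. These 9 were detected on at least 4 arrays of each medium. The 5 were the probe of Bgn, all 3 of Ogn and the brighter one of Dcn. Array 4 likewise had the highest normalized value with both antibodies for 18.6% of all tested probes. It did so for 5 of 5 muscle genes detected in GM, Myod1, Myog, Des, Chrna1 and Acta1. For ILMN_2747959 of Dcn the normalized log2 value was 8.13 on IgG array 4 against 5.92 to 6.50 on the others, and 7.48 on anti-MYF5 array 4 against 4.92 to 5.70. For ILMN_2859613 of Ogn it was 11.24 against 10.12 to 10.25 with IgG, and 11.23 against 9.57 to 9.79 with anti-MYF5. Bgn stood at 13.49 against 12.97 to 13.14 with IgG and at 13.77 against 13.07 to 13.38 with anti-MYF5. Des, which encodes the muscle filament protein desmin, stood at 12.57 against 11.72 to 11.80 and at 12.05 against 10.89 to 11.09. Myog, which encodes the differentiation factor myogenin, had signals on the arrays numbered 4 of 103.7 with IgG and 130.4 with anti-MYF5 against 68.6 to 96.7 on the other GM arrays. The part of the muscle genes in these values was not tested. The normalized value of Nid1 on array 4 was the highest with IgG (11.13 against 10.96 to 11.03). With anti-MYF5 it lay within the others (10.94 against 10.61 to 11.16). Raw signals on GM IgG array 4 did not all rank so. Bgn gave 8759.2 there against 10542.1 on array 3, and ILMN_2740622 of Ogn gave 130.9 against 155. That array had the lowest raw IgG signal for Myod1 (369.6), Chrna1 (4226.5) and Nid1 (1431.6). The brighter Dcn probe, the other Ogn probes, Des, Myog and Acta1 were highest there in raw signal too.

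Without both GM arrays numbered 4, a choice made after seeing the data, the medium counts were again 10 higher and 1 lower with either antibody. The Dcn change with IgG was then 5.24 (ILMN_2747959). The antibody counts moved: 4 probes were lower in GM, with Dcn (ILMN_2747959, log2 change -0.87, adjusted p = 0.0018) and the brightest Ogn probe (-0.52, adjusted p = 4.4e-04) added. In DM 7 were lower and 1, Bgn, was higher. The same 4 probes in GM were reached by leaving out anti-MYF5 array 4 alone.

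**Figure D4:**
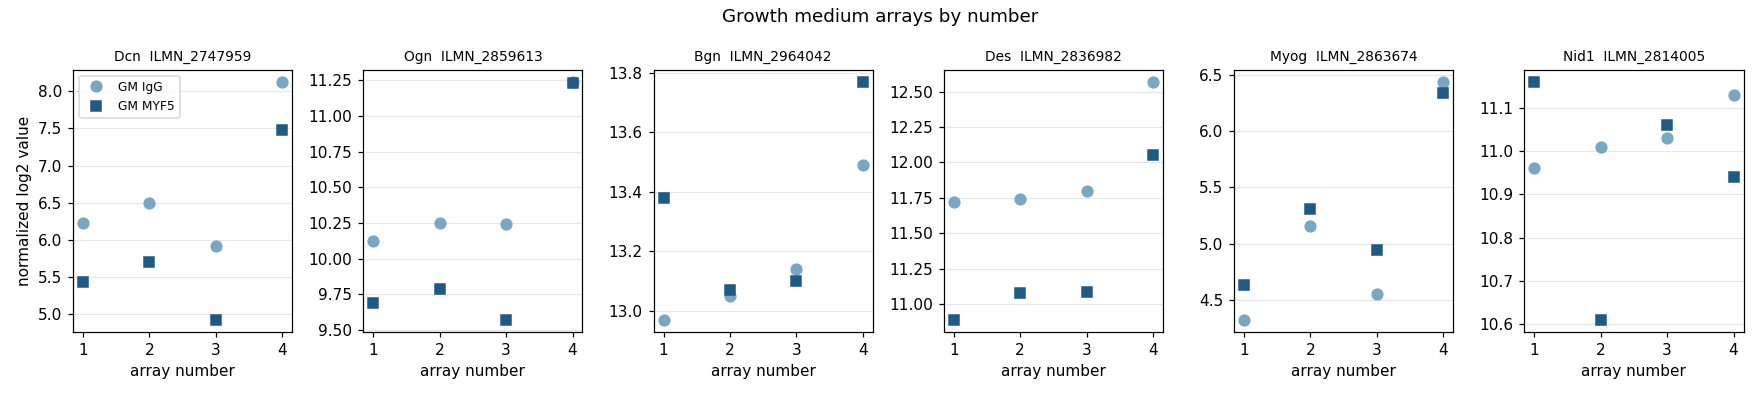
Normalized log2 values on the 8 GM arrays by array number, for Dcn, Ogn, Bgn, Des, Myog and Nid1 (circles IgG, squares anti-MYF5). Array 4 is the highest with both antibodies in every panel but that of Nid1, where it is the highest with IgG only.

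Across the 16 arrays, the profiles most like those of the 4 genes with the widest range of group means, each gene held to its brightest probe, were found by Pearson correlation, as a description. For Dcn they were both probes of Pdlim3 (r = 0.995 each), which encodes a protein of the muscle Z-disc. For Nid2 they were Ttn, the giant sarcomere protein titin (r = 0.993), and Asb2 (r = 0.990). Ogn was closest to Pdlim3 (r = 0.985) and Dbp (r = 0.983), and Lum to Ckmt2, a muscle mitochondrial creatine kinase (r = 0.986), and Crym (r = 0.984). The points share the arrays, their normalization and the medium difference, and the GM points of Lum are all background values.

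Other matrix genes place the set among its partners. Each gene stands by its brightest probe. With IgG, DM over GM, 29.5% of all genes were called higher and 34% lower. Of 7 tested small leucine-rich proteoglycans, the 4 described here among them, 6 were higher and 0 lower. Among the other 3, Prelp was 33.9-fold higher (log2 change 5.08, adjusted p = 8.9e-14) and Podnl1 2-fold (adjusted p = 1.8e-06). Of 7 collagen genes of types I, III, V and VI, whose fibrils and filaments the proteoglycans bind, 7 were higher, with a median log2 change of 2.30. Col1a1 was at least 8.87-fold higher, Col6a1 6.29-fold (adjusted p = 1.4e-10) and Col3a1 5.65-fold (adjusted p = 5.5e-10).

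Other lists hold the enzymes that build glycosaminoglycan chains on proteoglycan cores and those that process matrix proteins. Of 16 chain enzymes tested, 1 was higher and 6 lower in DM with IgG (median log2 change -0.21), and 2 higher and 2 lower without scaling between arrays. B4galt7, which adds a galactose of the linker between core and chain, was 2.32-fold lower (adjusted p = 1.7e-08), and the sulfotransferase gene Chst15 was 2.08-fold higher (adjusted p = 3.9e-05). Of 20 processing genes and proteases, 10 were higher and 2 lower. Pcolce2, which enhances procollagen cleavage, was 9.33-fold lower (adjusted p = 8.1e-12), and the gelatinase gene Mmp2 was 4.99-fold higher (adjusted p = 1.6e-09).

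Of 13 basement membrane genes, both nidogens included, 6 were higher and 2 lower, with Lama2, the laminin chain of muscle fibres, 3.08-fold higher (adjusted p = 4.3e-07) and Col18a1 2.45-fold lower (adjusted p = 3.7e-08). Of 8 matricellular genes, 5 were higher and 1 lower, led by Thbs1 at 7.51-fold (adjusted p = 1.5e-10). Of 4 genes of the SPARC family, 3 were higher and 0 lower, and Fstl1 was 1.39-fold higher (adjusted p = 0.039). Of 11 elastic fibre genes, 6 were higher and 4 lower, and 7 and 1 without scaling. The microfibril gene Mfap5 was at least 47.4-fold higher, and it was detected on no GM array. Of 14 matrix receptor genes, 5 were higher, among them Itga7 (3.85-fold, adjusted p = 2.4e-09), and 5 lower, among them Cd44 (4.33-fold, adjusted p = 1.0e-11).

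A few list genes passed the filter mainly through 1 medium, among them Lum, Mfap5 and Col1a1, which were detected on 0, 0 and 1 of 8 GM arrays and on all DM arrays. Among genes detected on at least 4 arrays of each medium, of which 27.1% were higher and 36% lower with IgG, 5 of 5 proteoglycans and 6 of 6 collagens were higher. There the SPARC family had 2 higher of 3, the basement membrane genes 4 higher and 2 lower of 11, and the elastic fibre genes 5 and 4 of 10.

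With anti-MYF5, DM over GM, 28.9% of all genes were called higher and 32.7% lower. The small leucine-rich proteoglycans again had 6 higher and 0 lower of 7, and the collagens 6 and 0 of 7 (median log2 change 1.97). The chain enzymes had 1 higher and 5 lower of 16, and the basement membrane genes 7 higher and 3 lower of 13 (5 and 3 without scaling).

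**Figure D5:**
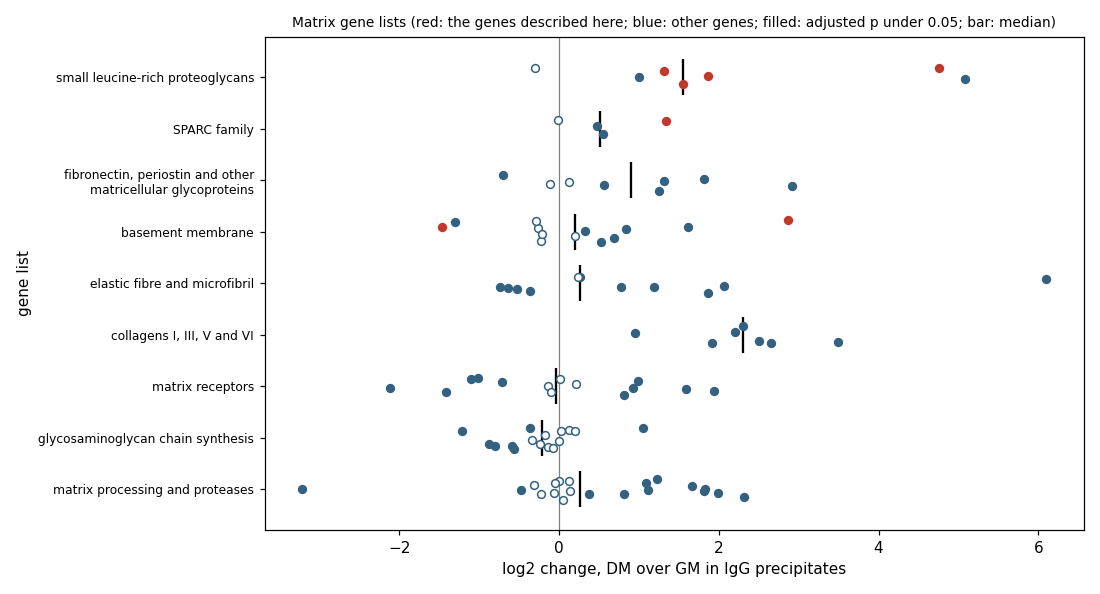
Fitted log2 change, DM over GM with IgG, of each tested gene of 9 matrix gene lists (x axis; points spread vertically for legibility; red, the genes described here; bars, list medians). The 7 collagen genes are all to the right of 0 with a median of 2.30, and the 16 glycosaminoglycan enzymes have a median of -0.21.

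Between antibodies in DM, 27.7% of all genes were called higher and 26.6% lower. Of the 7 collagen genes 0 were higher and 5 lower (median log2 change -0.64), among them Col3a1 at -1.06 (adjusted p = 1.5e-04), Col1a1 at -0.68 (adjusted p = 8.5e-04) and Col1a2 at -0.67 (adjusted p = 0.0015). The matrix receptors had 7 higher and 2 lower of 14, with the heparan sulfate proteoglycan Sdc4 at 1.07 (adjusted p = 7.2e-05). The glycosaminoglycan enzymes had 6 higher and 2 lower of 16, with Chst3 at 0.85 (adjusted p = 1.9e-06). Of the processing genes 5 were higher and 4 lower, with the protease inhibitor gene Timp1 at -1.33 (adjusted p = 6.0e-08). In GM, where 26.3% of all genes were called higher and 22.4% lower, the collagens had 0 higher and 1 lower, and the proteoglycans 0 higher and 1 lower, Omd (-0.55, adjusted p = 0.0025).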

How the data were processed

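RNA recovered with anti-MYF5 or IgG from C2C12 extracts was measured on 16 Illumina bead arrays, grouped by the sample titles. Each array has, per the file headers, a column of intensity and one of detection p-value. GenomeStudio 2011.1 made both, per the submitters' processing notes, and the authors deposited the intensity values without normalization between arrays. A further deposited score per probe has no stated unit and equals the z-score of the log10 signal of an array to within 5.0e-10, with array medians of -0.550 to -0.508. Beyond the processing notes cited above, the authors' processing and the array's genome build are not given in the sources used here.

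Signals were background-corrected (limma 3.58.1 in R 4.3.3, normal-exponential with the controls inferred from the deposited detection p-values, offset 16), put on the log2 scale and quantile-normalized, so changes are relative to the other RNAs on an array. The number of arrays limits the precision. The quantile step first averaged linear signals and was moved to log2 values after results of both were seen; the linear version is kept as an alternative. A probe was tested when its detection p was under 0.05 on 4 or more of the 16 arrays (13884 of 25697, covering 9429 genes). One model with 4 group means and 12 residual degrees of freedom was fitted to all arrays with lmFit and eBayes with an intensity trend, with Benjamini-Hochberg adjustment over all tested probes and a threshold of 0.05. A 2-sided exact permutation test over arrays was added for single probes. A fold against a group without a detected value is a lower bound, whose lower side is, on each array, the larger of the probe's own value and the lowest value that was detected, averaged. The test was tried on simulated data. Gene symbols are those of the platform annotation, renewed by Entrez identifier or accession (23978 probes had 1 symbol, 1719 none); RefSeq GRCm38.p6 gave names, positions and promoters.

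The genes, gene lists and tests were chosen with earlier results of these data known. Named are all probes of the 10 genes, from each list up to 3 other called genes with the largest change per comparison, and the 2 probes of other genes with the most similar profile for each of 4 genes; the text gives a selection of the list genes. Replicate numbers were checked as pairs. Same-numbered arrays of one medium had correlations of their deviations from 0.01 to 0.61 in GM and 0.02 to 0.42 in DM, so the numbers were not treated as pairs.

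Alternatives covered background, scaling, filter, trend, array weights, the arrays fitted, the replicate block and leaving out arrays.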

Additional observations from a re-analysis of the deposited data

Results flagged for a closer look

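In 44 groups of 4 arrays (11 probes, 4 groups), 3 held an array whose Dixon ratio exceeded its 95% critical value. The ratio is the gap to the nearest other array divided by the range of the 4. Chance flags about 1 group in 20. For Ogn (ILMN_2859613), GM IgG array 4 stood at a normalized log2 value of 11.24 against 10.12 to 10.25 on the other 3 arrays, and GM anti-MYF5 array 4 at 11.23 against 9.57 to 9.79. For Dcn (ILMN_2596346), DM anti-MYF5 array 4 stood at 9.10 against 8.30 to 8.42, with a signal of 554.9.

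For Lum the test of the difference between media in the change with anti-MYF5 over IgG passed the threshold, with a DM minus GM value of -0.81 (limma, adjusted p = 0.027). Lum was detected on none of the GM arrays and on all DM arrays. Its GM change of 0.01 is therefore one of background values, and the difference restates the DM change of -0.81.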

How the results depend on the processing

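Over 55 probe results and 1320 alternatives, 1207 kept direction and side of the threshold, 58 gained a call, 11 lost one and 44 changed sign, of which 0 involved a called value. The medium counts were 10 higher and 1 lower under every alternative run; Lum and the dimmer Dcn probe, 2 of the 10, pass the filter only because of DM arrays. The causes below were not tested.

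Probes called lower in GM numbered 2, with 0 without scaling between arrays, 4 without both GM arrays numbered 4, and 2 to 4 on leaving out 1 array (4 without GM anti-MYF5 array 4). Probes called higher in GM numbered 0, and 1 without scaling. Probes called lower in DM numbered 3. They were 6 with no background correction, with an offset of 50, on the deposited z-scores and with only the compared groups, 5 with median scaling, 7 with array weights and without both GM arrays numbered 4, and 2 to 4 on leaving out 1 array. Probes called higher in DM numbered 0, with 2 under array weights, 1 with only the compared groups and without both GM arrays numbered 4, and 0 to 1 on leaving out 1 array (1 without DM anti-MYF5 array 4). The DM minus GM difference called 1 lower, with 0 after cyclic loess, 2 without scaling and without both GM arrays numbered 4, 3 with array weights, and 0 to 2 on leaving out 1 array (2 without GM IgG array 4 or DM anti-MYF5 array 4). Quantile averages on linear signals, the version first used, gave the main counts in every comparison.

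The replicate block gave 3 lower in GM, adding Dcn (ILMN_2747959, -0.82, adjusted p = 0.015), and 6 in DM, adding the same Dcn probe (-0.91, adjusted p = 0.007), Nid2 (-0.38, adjusted p = 0.013) and Sparc (ILMN_3059326, -0.33, adjusted p = 0.018), and 1 for the difference. The replicate block within medium, added after seeing the data, gave 5 lower in GM, 2 higher and 7 lower in DM, and 3 lower for the difference. Of the 8 arrays 5 in GM and 6 in DM correlated best with their own number, a hint from the data and not from the design.

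Values that changed sign were all uncalled. For anti-MYF5 over IgG in GM, median scaling gave Lum -0.09, Sparc (ILMN_3136561) 0.14, Nid1 0.16 and Nid2 0.03; cyclic loess gave Bgn -0.06 and Lum -0.17; no scaling gave Sparc 0.28, Nid1 0.29 and Nid2 0.17; z-scores gave Bgn -0.21 and Lum -0.04; array weights gave Lum -0.02 and Sparc 0.06; and without both GM arrays numbered 4 Lum was -0.03 and Sparc 0.07. On leaving out 1 array Lum ran from -0.02 to 0.03, Sparc from -0.09 to 0.08 and Nid1 from -0.16 to 0.02. In DM Bgn was -0.09 with median scaling, -0.05 with cyclic loess and -0.07 with no scaling. For the DM minus GM difference, median scaling gave Bgn -0.21, Ogn -0.19 (ILMN_2859613) and -0.07 (ILMN_2740622); no scaling gave Bgn -0.32, the Ogn probes -0.30, -0.07 and -0.19, and Nid1 -0.10; z-scores gave Ogn -0.07 (ILMN_2740622) and Sparc 0.04 (ILMN_3136561). On leaving out 1 array Dcn (ILMN_2747959) ran from -0.57 to 0.44, Bgn from -0.05 to 0.21 and Ogn (ILMN_2859613) from -0.03 to 0.61.

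Median scaling moved the median change of all genes to 0.19 in GM, to -0.27 for the difference and to -0.14 for DM over GM with anti-MYF5; no scaling moved them to 0.32, -0.38 and -0.15, and DM over GM with IgG to 0.19. The share of called probes that were higher moved in GM from 54.7% to 73.9% (median scaling) and 83.3% (no scaling), and with IgG, DM over GM, from 45.6% to 60.1% and 69.1%. For the difference it moved from 40.9% to 7.8%, 3.3% and, after cyclic loess, 51.6%. Signals at background limit Lum, Fmod, Postn and the GM values of Dcn.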
